A study of Bos taurus with 12 samples.

Results

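Milk fat leaves the mammary epithelial cell as a droplet of triglyceride wrapped in the apical plasma membrane. The 10 genes described here encode the proteins of that wrapping and of the droplet inside the cell: BTN1A1, XDH, MFGE8 and MUC1 of the milk fat globule membrane, PLIN2, PLIN3 and CIDEA of the droplet surface, and PNPLA2, ABHD5 and LIPE, which hydrolyse stored triglyceride or assist its hydrolysis. They were chosen by name, and their probes were all array probes whose RefSeq transcript carries one of these symbols. They amounted to 10 of the 12787 genes with a probe and to 23 of 43653 probes.

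The samples were mammary gland biopsies of lactating Holstein cows, each hybridised to 1 one-colour (Cy3) bovine array. In the control period (CONT, day 0, n = 6) the cows ate a lactation diet ad libitum. In the restriction period (REST, day 6, n = 6) the same cows received feed covering 50% of their net energy requirement for lactation. No other treatment was described. The paper states that biopsies alternated between the rear glands of the udder, and each REST biopsy came after a CONT biopsy of the same cow. The groups therefore differ in feeding, in time, in biopsy site and in earlier biopsy together. The labels give 6 cows while the series description counts 5, and the methods exclude 1 Holstein cow with mastitis without saying which. All 6 were used. Values with 1 cow omitted are given where they differ for the genes described here and for the count of called probes, but not for the related lists and markers.

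In the secreting cell, perilipins coat droplets as they grow, and CIDE proteins let small droplets merge into larger ones. At the apical surface butyrophilin (BTN1A1) binds xanthine dehydrogenase (XDH), and both associate with the perilipin PLIN2 on the arriving droplet, a link described as holding the membrane to the fat during budding. Lipolysis runs the other way, from triglyceride to fatty acids, and is best known from adipose tissue.

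Signals are given as log2 of the scanner software's processed intensity minus the 75th percentile of the array, so 0 is that percentile and a difference of 1 is a doubling. The slides differed in brightness. The 75th percentile was 252 to 390.0 intensity units on the slides of cows 1 to 4 and 73.2 to 117 on the slide of cows 5 and 6, where 41.9 to 48.0% of spots lay well above background against 61.8 to 67.9% on the others. Both arrays of a cow shared a slide. Transcripts that define the lactating gland were bright, with CSN3 (kappa-casein) at 9.98 ± 0.18 in CONT and 9.70 ± 0.17 in REST (SD, n = 6), and of the 9 luminal epithelial markers 8 were measured above background.

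REST was compared with CONT by limma with the cow as a block, over 19406 probes that were well above background on every array of at least 1 group, and a call is an adjusted p below 0.1. Of the 10 genes, 8 had a tested probe (19 probes), and 2 of them, MFGE8 and CIDEA, were called lower in REST. Among all 7932 tested genes, 11.5% had a probe called lower and 9.08% a probe called higher, so 2 of 8 lower and 0 of 8 higher is a count to be read against 11.5 and 9.08%. By the probe of highest signal, 2 of 8 were called in either direction, beside 16.2% of all tested genes. The median change over the 8 genes was -0.06, with 5 lower and 3 higher, beside a median of -0.01 over all tested genes. Without the cow in the fit (the methods mention no pairing), limma called 0 of 8 (2 had an unadjusted p below 0.05), beside 5.69% of all tested genes. Among all 19406 tested probes, 5347 had an unadjusted limma p below 0.05 with the cow and 3271 without it. Every count at that level, here and below, is to be read beside these.

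**Figure D1:**
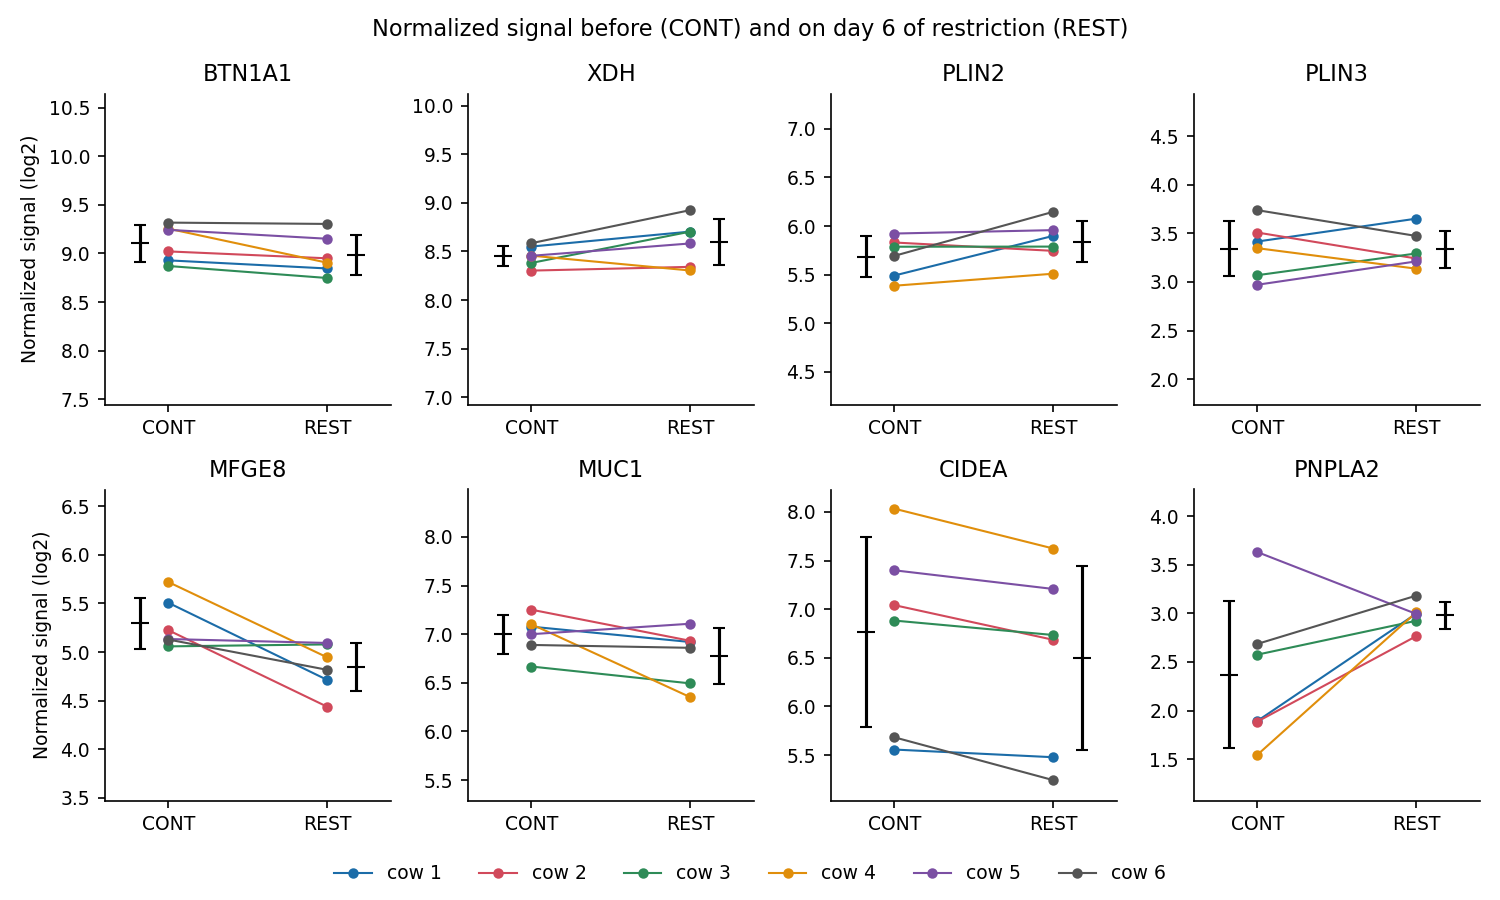
Normalized signal (log2, relative to the array's 75th percentile) of the brightest probe of the 8 tested genes, in CONT and REST, 1 line per cow, with the group mean ± SD (n = 6) as black bars at the sides. Every panel spans the same range of log2 units; the MFGE8 lines of cows 1, 2 and 4 fall steeply, and the 6 CIDEA lines run nearly parallel at widely separated heights.

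BTN1A1 encodes butyrophilin, the most characteristic transmembrane protein of the globule membrane. Its brightest probe lay between 8.87 and 9.32 in CONT (median 9.13) and between 8.75 and 9.30 in REST (median 8.93). The ranges overlapped almost completely, although the REST value was the lower one in 6 of 6 cows, by 0.01 to 0.35. The mean was 9.11 ± 0.19 in CONT and 8.98 ± 0.21 in REST (SD, n = 6), a change of -0.12 (SE 0.08, 95% interval -0.30 to 0.05, limma adjusted p = 0.337). The sign of that change depended on the scaling, since quantile normalization gave 0.07, and without cow 4 it was -0.08. The other BTN1A1 probes, at lower signal, differed by 0.07 (adjusted p = 0.667) and -0.05 (adjusted p = 0.721) between the periods, so the 3 probes of the gene did not share a direction.

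XDH, a purine-degrading enzyme that doubles as a structural protein of the globule membrane, was measured by 1 probe. The CONT values lay in a narrow band, from 8.30 to 8.58 with a median of 8.46, and the REST values reached from 8.30 to 8.92 with a median of 8.64. The groups overlapped, and 5 of 6 cows were higher in REST, cow 4 being the exception (-0.15). The mean was 8.46 ± 0.10 in CONT and 8.59 ± 0.24 in REST (SD, n = 6), a difference of 0.14 (SE 0.09, 95% interval -0.06 to 0.34, limma adjusted p = 0.344). The upper end of that interval is a 1.27-fold difference. With 1 cow omitted the change of XDH ranged from 0.10 to 0.20.

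PLIN2 (adipophilin) is the main coat protein of cytoplasmic droplets in the mammary epithelium. Its probe lay between 5.39 and 5.92 in CONT (median 5.74) and between 5.51 and 6.15 in REST (median 5.84). Most of that difference came from cows 1 and 6, which differed by 0.41 and 0.45, while the other 4 cows lay between -0.09 and 0.12. The change was 0.16 (SE 0.10, 95% interval -0.06 to 0.38, limma adjusted p = 0.330), and without cow 6 it was 0.10. With a model-based background correction of the raw intensities (normexp) it was 0.30, and the adjusted p was then 0.0542.

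PLIN3 is a perilipin that moves between the cytosol and young droplets. Its brighter probe lay between 2.97 and 3.74 in CONT (median 3.38) and between 3.14 and 3.65 in REST (median 3.27), with 3 cows lower and 3 higher. The changes were -0.01 (SE 0.11, adjusted p = 0.972) and -0.00 (SE 0.10, adjusted p = 0.992) at its 2 probes. The 95% interval of the brighter probe, -0.25 to 0.23, still leaves room for a difference of 1.18-fold upward.

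BTN1A1, XDH and PLIN2 make up the budding link, and none of the 3 passed the test in either direction. Over the 12 arrays, the genes whose signal ran closest to BTN1A1 were CDIPT (Pearson r = 0.918), SRD5A1 (r = 0.915) and CTDNEP1 (r = 0.905). For XDH they were RNASE4 (r = 0.896), MYO1C (r = 0.889) and SUPT20H (r = 0.862), and for PLIN2 they were QPCTL (r = 0.933), F7 (r = 0.929) and LAT (r = 0.908). These are the highest of all tested genes, the 12 arrays come in pairs from 6 cows and share slides, and none of the 3 budding genes was among the nearest of another.

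**Figure D2:**
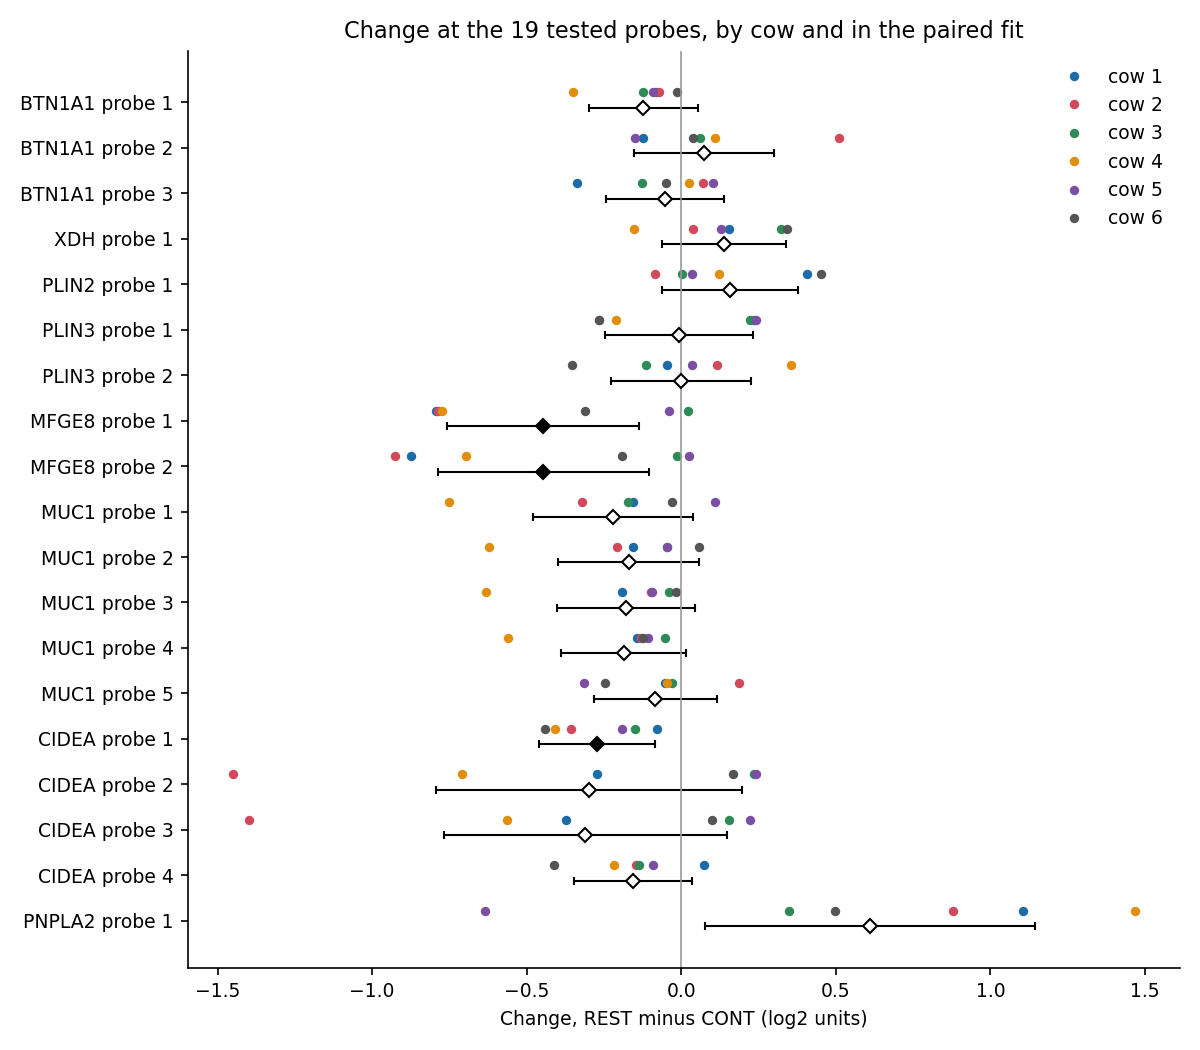
Change from CONT to REST (log2 units) at the 19 tested probes. Coloured dots are the 6 cows; diamonds with bars are the limma estimate and its 95% interval with the cow as a block, filled where the adjusted p is below 0.1. The filled diamonds are both MFGE8 probes and CIDEA probe 1, and PNPLA2 has the widest spread of cows, from -0.64 to 1.47.

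MFGE8 (lactadherin) is a secreted glycoprotein that binds phosphatidylserine on the globule surface and, elsewhere, on dying cells. In CONT its brighter probe was at 5.51, 5.23, 5.06, 5.72, 5.13 and 5.13 in cows 1 to 6. In REST it was at 4.71, 4.44, 5.08, 4.95, 5.09 and 4.82 in the same order. Cows 1, 2 and 4 fell by 0.78 to 0.79, cow 6 fell by 0.31, and cows 3 and 5 were level at 0.02 and -0.04, so the groups touched only through the latter pair: the highest REST value, 5.09, lay above the lowest CONT value, 5.06.

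The mean of MFGE8 fell from 5.30 ± 0.26 to 4.85 ± 0.25 (SD, n = 6), a change of -0.45 (SE 0.14, 95% interval -0.76 to -0.14, limma adjusted p = 0.0789). On the linear scale that is 0.733-fold, with an interval from 0.591 to 0.909. The second probe gave 5.26 ± 0.35 in CONT and 4.82 ± 0.28 in REST, again a change of -0.45 (SE 0.15), with an adjusted p of 0.0999, just inside the threshold. Its cows came in the same pattern, from -0.93 in cow 2, -0.87 in cow 1 and -0.70 in cow 4 to -0.01 and 0.02 in cows 3 and 5.

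The call of MFGE8 rested on several animals at once. The adjusted p of its brighter probe was 0.184 without cow 1, 0.208 without cow 2, 0.20 without cow 4 and 0.125 without cow 6, with changes between -0.54 and -0.38 over all 6 omissions. Within slides the change was -0.79 for cows 1 and 2, -0.38 for cows 3 and 4, and -0.18 for cows 5 and 6, on the dim slide. Without the cow in the fit the adjusted p was 0.132, and after quantile normalization 0.122.

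The mean level of the 8 tested luminal markers was higher in REST by 0.41 to 0.48 in cows 1, 2 and 4, and by -0.05 to 0.11 in cows 3, 5 and 6; over the list it lay between 3.02 and 3.52 in CONT and between 3.16 and 3.74 in REST. Of these 8 markers 3 were called, all higher, and 0 without the cow (3 at an unadjusted p below 0.05), while single markers ranged from -0.17 to 0.72. The division of the cows held for the mean of the list and not for each called marker: KRT8, a keratin of luminal cells, was higher in REST in 6 of 6 cows, by 0.82 in cow 5 and 0.71 in cow 1. The mean level of the 5 measured milk proteins was lower in REST in 6 of 6 cows, by 0.05 to 0.32 (9.72 to 10.08 in CONT, 9.41 to 9.79 in REST), but its direction depended on the scaling, since the median change of -0.20 over its genes was 0.01 after quantile normalization. The mean level of the 6 fibroblast markers changed by -0.84, -0.56, 0.49, 0.20, 0.01 and -0.55 in cows 1 to 6. The part of any of these lists in the MFGE8 result was not tested, and in whole tissue fewer cells of a type cannot be told apart from less RNA per cell.

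MUC1 is a long, heavily glycosylated mucin that stands out from the globule surface. Its brightest probe lay between 6.67 and 7.25 in CONT (median 7.04) and between 6.35 and 7.11 in REST (median 6.89). The groups overlapped, and 5 of 6 cows were lower in REST. Cow 4 gave the largest difference, -0.75, and the other cows lay between -0.32 and 0.11. The mean was 6.998 ± 0.201 in CONT and 6.777 ± 0.290 in REST (SD, n = 6), a change of -0.22 (SE 0.11, 95% interval -0.48 to 0.04, limma adjusted p = 0.245), and without cow 4 it was -0.11.

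All 5 MUC1 probes had a negative change, from -0.22 to -0.08, and none passed the test, with adjusted p between 0.211 and 0.567. Cow 4 was the lowest of the cows at 4 of the 5 probes, at -0.75 to -0.56, and not at the dimmest one, where it was at -0.05. Probes of 1 gene read the same RNA samples, so their shared sign is not repeated evidence.

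CIDEA belongs to the family of proteins that transfer lipid between touching droplets, and in mice it is needed for normal milk fat secretion. Its 4 probes, all assigned to the same RefSeq transcript, gave different pictures of the cows. Probe 1 was at 5.56, 7.04, 6.88, 8.03, 7.40 and 5.68 in CONT and at 5.48, 6.69, 6.73, 7.62, 7.21 and 5.24 in REST, in cows 1 to 6. The cows spanned over 2 log2 units and kept nearly the same order in both periods, so the groups overlapped throughout. Yet every cow was lower in REST, by 0.08 to 0.44.

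At probe 1 the mean of CIDEA fell from 6.766 ± 0.973 to 6.495 ± 0.947 (SD, n = 6), a change of -0.27 (SE 0.08, 95% interval -0.46 to -0.08, limma adjusted p = 0.0782), or 0.829-fold. The call needs the pairing by cow. Without it the spread between cows entered the error, and the adjusted p was 0.816. It was also above the threshold of 0.1 without cow 1 (0.105), cow 2 (0.197), cow 3 (0.109), cow 4 (0.196) and cow 6 (0.168), with changes from -0.31 to -0.24, and within slides the change was -0.22, -0.28 and -0.32. The other 3 probes had changes of -0.30 (adjusted p = 0.407), -0.31 (adjusted p = 0.351) and -0.16 (adjusted p = 0.267).

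Probes 2 and 3 ranked the cows the other way round. In CONT, probe 2 was at 6.39, 5.44, 5.06, 2.43, 4.87 and 6.37 in cows 1 to 6. In REST it was at 6.11, 3.99, 5.30, 1.72, 5.11 and 6.54. Cow 4, the highest at probe 1, was thus the lowest at probe 2, and cows 1 and 6, the lowest at probe 1, were the highest at probe 2.

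The mean of the 2 periods in each cow shows the split over all 4 CIDEA probes. Probe 4 followed probe 1, with cow 4 at 3.98 and the Pearson r of the 6 cow means at 0.998. Probe 3 followed probe 2, with cow 4 at 1.86 and r = 0.99994. Between the pairs r was negative, at -0.88 for probes 1 and 2 and -0.90 for probes 2 and 4. These are descriptions over 6 cows, seen in the data before they were computed.

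Of the 3862 genes with several tested probes, 36 had at least 2 probes whose cow means ranged over 2 or more log2 units. CIDEA had the lowest correlation between such probes among these 36 and was the only 1 below 0, the next lowest being at 0.73 and the median at 0.99. The limit of 2 was chosen after the CIDEA values were seen. The spread of cow means at the 4 probes was wider than at 99.2 to 99.9% of all tested probes. The positions of the probes on the transcript were not analysed here, and the cause of the split was not tested.

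**Figure D3:**
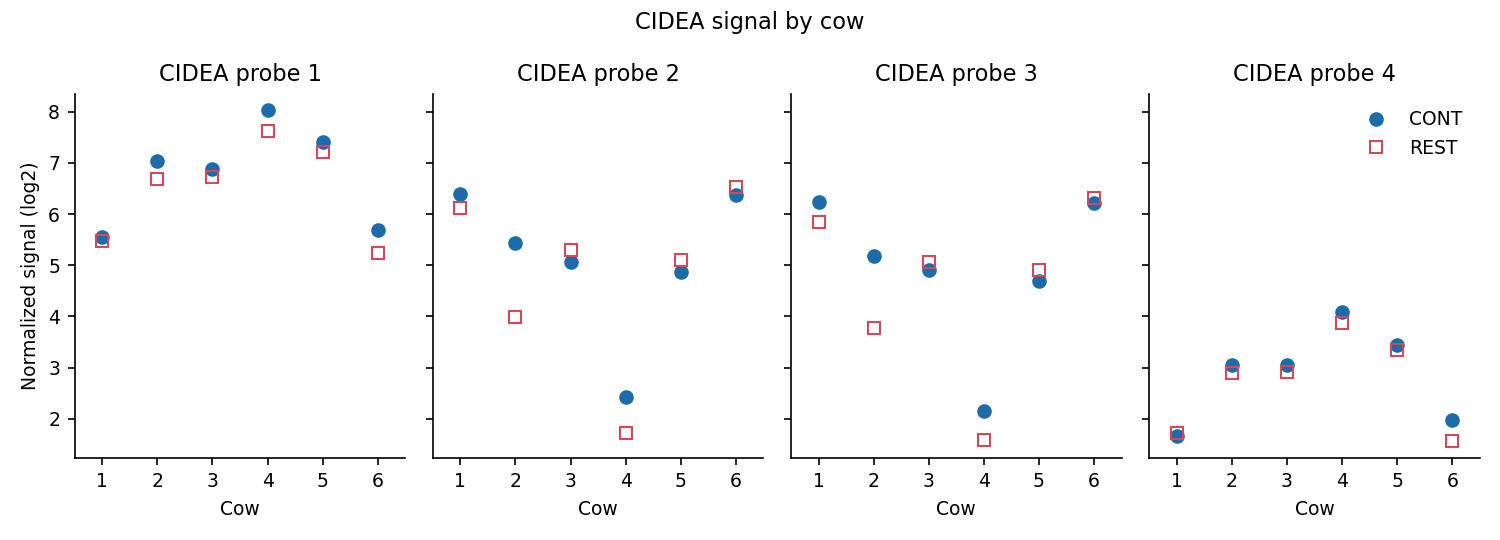
Normalized signal (log2) of the 4 CIDEA probes in each cow, in CONT (filled circles) and REST (open squares). Probes 1 and 4 peak in cow 4 and are lowest in cows 1 and 6, while probes 2 and 3 show the opposite order; the distance between periods is small beside the distance between cows, except in cow 2 at probes 2 and 3.

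Cow 2 stood apart at CIDEA probes 2 and 3, with changes of -1.45 and -1.40 against -0.15 at probe 4. At probe 2, cows 1 and 4 were at -0.27 and -0.71 and cows 3, 5 and 6 at 0.17 to 0.24. Without cow 2 the change of probe 2 was -0.07.

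PNPLA2 (adipose triglyceride lipase) removes the first fatty acid from triglyceride at the droplet surface. In CONT its probe was at 1.89, 1.89, 2.57, 1.54, 3.63 and 2.68 in cows 1 to 6, and in REST at 3.0, 2.76, 2.92, 3.01, 2.99 and 3.18. The CONT values were scattered and the REST values lay close together, with SDs of 0.76 and 0.14. All REST values lay above 5 of the 6 CONT values, and the remaining one, cow 5, was the highest of all 12 arrays and the only cow with a negative change (-0.64).

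The mean of PNPLA2 was 2.37 in CONT and 2.98 in REST, a change of 0.61 (SE 0.24, 95% interval 0.08 to 1.14), which is 1.53-fold with an interval from 1.05 to 2.21. It did not pass the test over all probes (limma adjusted p = 0.136), its unadjusted limma p being 0.0295. Without cow 5 the change was 0.86 and the adjusted p 0.0315, and without the dim slide of cows 5 and 6 they were 0.95 and 0.0572. Within slides the change was 0.99 for cows 1 and 2, 0.91 for cows 3 and 4, and -0.07 for cows 5 and 6. After normexp background correction it was 0.70 with an adjusted p of 0.0311. In the other direction, it was 0.44 without cow 4 (adjusted p = 0.310) and 0.51 without cow 1 (adjusted p = 0.287), and without the cow in the fit the adjusted p was 0.283.

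ABHD5 (CGI-58), the protein that activates PNPLA2, and LIPE (hormone-sensitive lipase), which acts on the diglyceride that PNPLA2 leaves, had no tested probe. The single ABHD5 probe was not well above background on any array (0 of 12). LIPE had 3 probes, of which 1 was well above background on 4 CONT and 5 REST arrays and the others on 0 arrays. No fold is given for either gene. Of the adipocyte markers, PLIN1 (perilipin of fat cells) and RETN (resistin) were likewise well above background on 0 of 12 arrays, LEP (leptin) on 4 and CIDEC on 8, so only FABP4 and CFD of that list were tested. These changed in opposite directions, FABP4 by -0.35 (adjusted p = 0.0447) and CFD by 0.78 (adjusted p = 0.0152), and at these probes, the brightest of each gene, neither was called without the cow in the fit (adjusted p = 0.194 and 0.109), although 1 gene of the list, CFD, was then called at its dimmer probe.

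The larger changes of MFGE8 and PNPLA2 fell in the same cows. Cows 1, 2 and 4 had the steepest falls of MFGE8, from -0.93 to -0.70 over both probes, and the largest differences of PNPLA2, from 0.88 to 1.47. They were also the only cows below 0 at CIDEA probe 2, but the called CIDEA probe did not divide the cows this way: at probe 1 all 6 were below 0, with the smallest fall in cow 1 (-0.08) and the largest in cow 6 (-0.44). Cow 5 was near 0 at both MFGE8 probes and negative at PNPLA2. Cows 1 and 2 shared a slide and cow 4 lay on another. The division was not particular to MFGE8 and PNPLA2. MGLL, a lipase of a related list, was at 0.72 to 1.02 in cows 1, 2 and 4 and at -0.23 to 0.23 in the others. The mean level of the luminal markers divided the cows the same way, while HSD17B11, a droplet-bound dehydrogenase, did not (0.45 in cow 1, 0.71 in cow 5). The cause of the division was not tested.

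**Figure D4:**
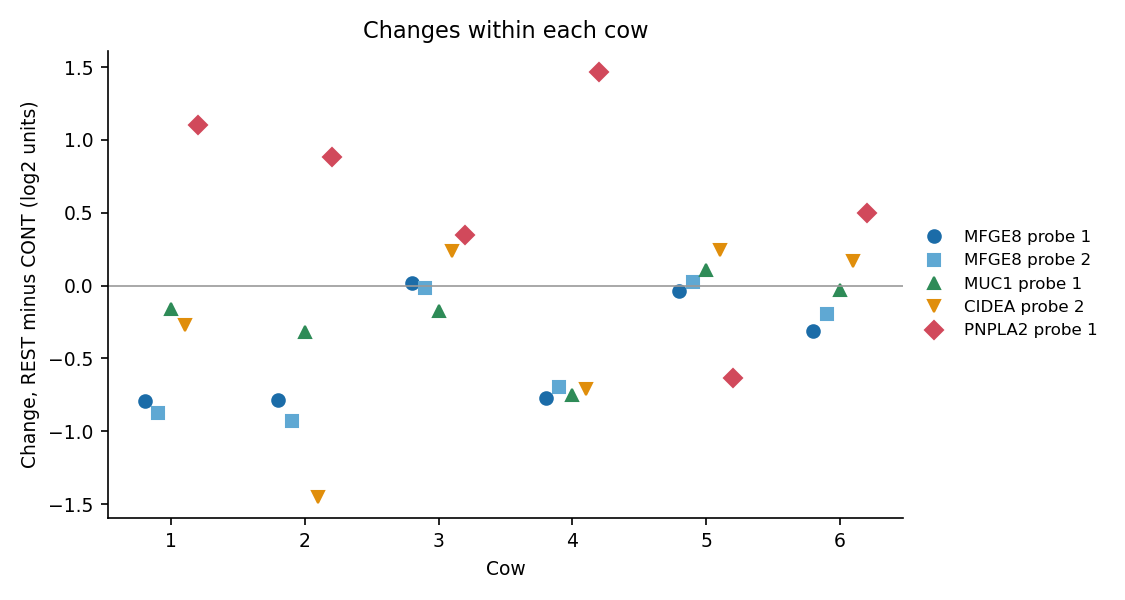
Change from CONT to REST (log2 units) in each cow at 5 probes: both MFGE8 probes, the brightest MUC1 probe, CIDEA probe 2 and PNPLA2, set slightly apart on the cow axis. In cows 1, 2 and 4 MFGE8 is at -0.70 or lower and PNPLA2 at 0.88 or higher, while in cows 3, 5 and 6 MFGE8 is between -0.31 and 0.02.

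Genes that work with these 10 were described from 5 lists, 1 probe per gene, beside 16.2% called among all tested genes. Without the cow, the share of all tested genes is known by any probe only, at 5.69%. By that rule 3 genes of the globule membrane list, 3 of the droplet list and 0 of each other list were called without the cow. Of 12 other proteins of the globule membrane, all tested, 3 were called lower and 3 higher, with a median of -0.06. By any probe 4 were called lower and 3 higher, beside 11.5 and 9.08% of all tested genes. FABP3 (heart-type fatty acid binding protein), which the study named from these same samples, fell by 0.73 (adjusted p = 0.00708), FABP5 fell by 0.55 (adjusted p = 0.0347), and SLC34A2, a sodium-phosphate cotransporter, fell by 1.44 (adjusted p = 0.0404). CLU (clusterin, a secreted chaperone) rose by 0.99 (adjusted p = 0.0103). The remaining calls were PIGR (0.44, adjusted p = 0.0963), which carries immunoglobulin A into milk, and CD9 (0.38, adjusted p = 0.0706), a tetraspanin. Without the cow, 3 of the 12 were called.

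Of 9 genes of vesicle traffic and membrane fusion, such as RAB18 and VAMP8, limma called 0 with the cow and 0 without it, and 0 had an unadjusted p below 0.05 in either fit. Their median change was -0.03 and their range -0.17 to 0.16.

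Of 18 genes of the droplet coat and of droplet formation, 11 were tested, with 1 called lower and 2 higher and a median of -0.03. By any probe 3 were called lower and 2 higher, beside 11.5 and 9.08% of all tested genes. BSCL2 (seipin), which shapes budding droplets at the endoplasmic reticulum, changed by -0.30 (adjusted p = 0.0927). Its partner LDAF1 was higher by 0.61 (adjusted p = 0.0431) at a probe well above background on 4 CONT and 6 REST arrays, so that it entered the test only through REST, the group in which it was higher. HSD17B11, a droplet-bound dehydrogenase, rose by 0.78 (adjusted p = 0.0163) in 6 of 6 cows. PLIN5, the remaining measured perilipin, was at 2.88 ± 0.82 in CONT and 2.92 ± 0.99 in REST (adjusted p = 0.886). Without the cow, 2 of the 11 were called.

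Of 16 genes of lipolysis and its control, 9 were tested, with a median of 0.15 and 6 of 9 above 0. Limma called 1 of the 9, and 3 had an unadjusted p below 0.05, beside 5347 of all 19406 tested probes. MGLL, the lipase of the final step from monoglyceride, was at 2.09 ± 0.35 in CONT and 2.52 ± 0.24 in REST (adjusted p = 0.134). Without the cow limma called 0, with 2 at an unadjusted p below 0.05.

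Of 10 acyltransferases that build triglyceride, 9 were tested, with 2 called lower and 2 higher and a median of -0.01. GPAT4 changed by -0.35 (adjusted p = 0.0884) and DGAT1, of the final step, by -0.28 (adjusted p = 0.0708). GPAT3 changed by 0.35 (adjusted p = 0.0349) and AGPAT4 by 0.40 (adjusted p = 0.0966). Without the cow limma called 0 of the 9, with 1 at an unadjusted p below 0.05.

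**Figure D5:**
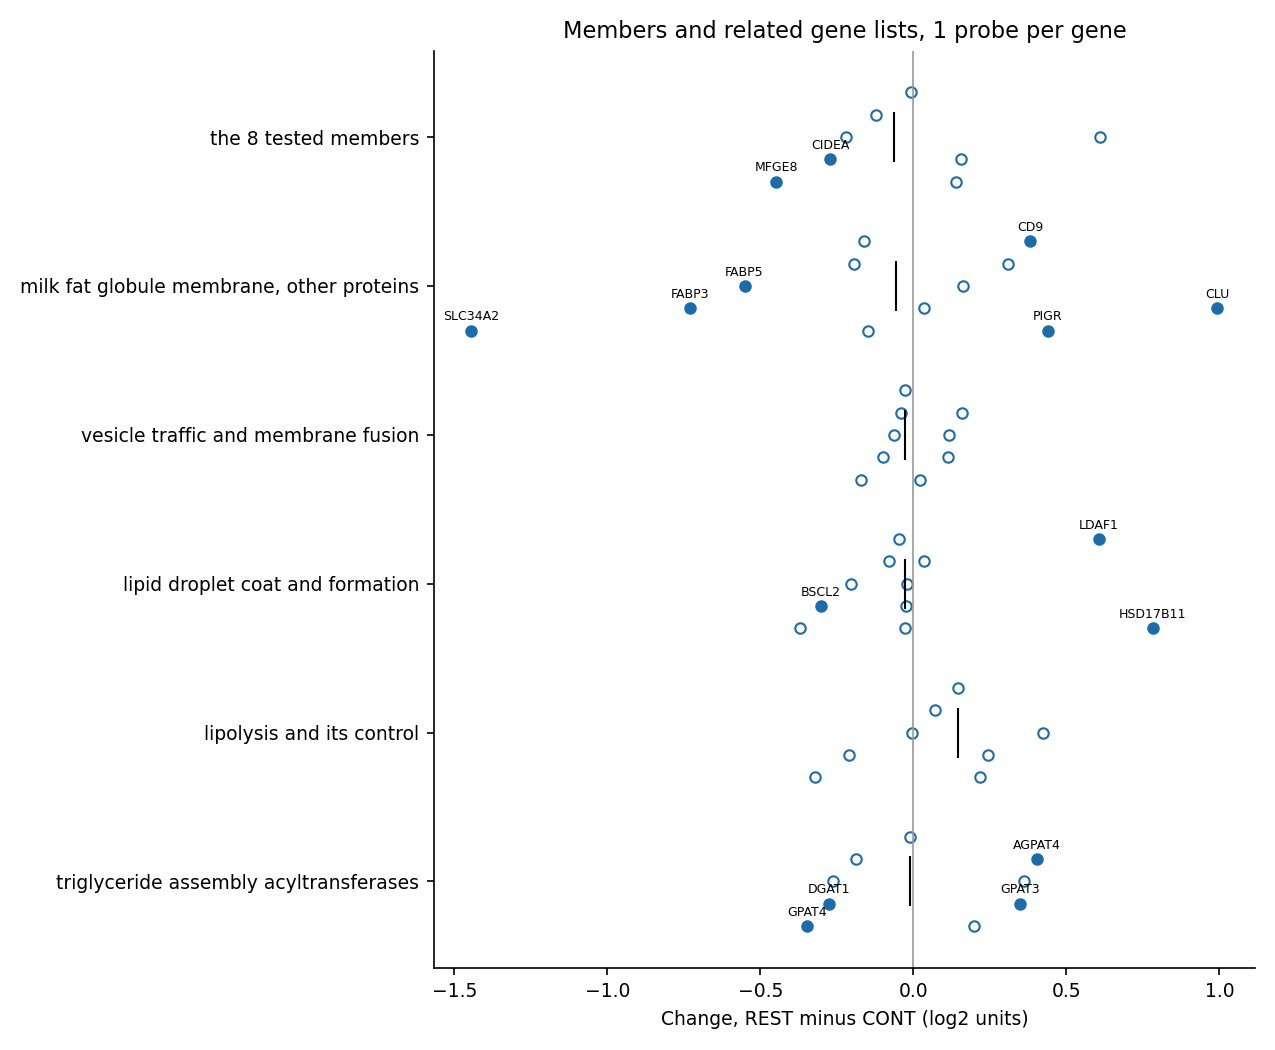
Change from CONT to REST (log2 units) of the 8 tested genes described here and of the tested genes in 5 related lists, 1 probe per gene; filled and named points have a limma adjusted p below 0.1 and vertical ticks are medians. Vertical position within a list carries no value, and 1 tested gene is not drawn although its list's median includes it. The medians lie between -0.06 and 0.15, and the other globule membrane proteins spread from -1.44 to 0.99.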

How the data were processed

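The deposited scanner files hold spot intensities that the authors extracted with Agilent Feature Extraction 11: a processed intensity, background-subtracted and detrended, on a linear scale. The deposited series table held the same values, with no scaling between arrays. Here repeat spots were averaged, marked spots (1 to 13 per array) left out, log2 taken and the 75th percentile subtracted. Symbols came through RefSeq transcripts of a reference gene table (62.2% of probes). The array grid and that table use different assemblies, so no positions are given, and probe sequences were not used here.

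REST was compared with CONT in limma 3.58.1 (R 4.3.3, lmFit and eBayes, two-sided, cow as a fixed block), with Benjamini-Hochberg adjustment over all tested probes. The fit was tested on simulated data. The methods give the percentile shift, the moderated test and the threshold of 0.1, and mention no pairing. Pairing comes from the animal in the labels: deviations from the group mean correlated at 0.356 to 0.574 within cows, and at -0.0912 to 0.127 between cows of a slide. Replicates are cows, and 6 per group limit the precision of every value.

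The members and lists were chosen with earlier results of these data known. Named genes are the 10 members, at most 4 called genes of each related list by absolute change, of each marker list the brightest gene and up to 3 called ones, and the 3 genes correlating best with BTN1A1, XDH and PLIN2. For 1 gene that falls under this rule the values are left out, and it stays in the counts. PIGR, CD9, RAB18, VAMP8, PLIN5, MGLL and CSN1S2 were named besides, after their values were seen. Python 3.11.15, pandas 2.3.3 and matplotlib 3.10.9 read the files and drew the plots. Alternatives covered pairing, slide, normalization, background correction, filter, moderation and each cow left out. Leaving out the dim slide was added after seeing the data. The related lists and markers were read only in the main fit, without the cow in the fit, after quantile normalization and after a median shift.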

Additional observations from a re-analysis of the deposited data

How the results depend on the processing

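Probes called numbered 3105, and 837 without the replicate block, 1899 with the slide as block, 388 without the filter on dim probes, 723 without moderation or block, and 1045 to 3253 with each cow left out. Called members numbered 2, and 0 without the block, without the filter, and without moderation or block (2, 4 and 1 members at an unadjusted p below 0.05 in limma, limma and the unmoderated test), 1 with the slide as block (MFGE8), after quantile normalization (CIDEA) and after a median shift (MFGE8), and 0 to 3 with each cow left out. It was 0 without cow 1, 2, 4 or 6, 1 without cow 3 (MFGE8) and 3 without cow 5 (MFGE8, CIDEA, PNPLA2). Under normexp with the percentile shift the 2 called members were PLIN2 and PNPLA2, both higher, under normexp with quantile normalization 3 were called (MFGE8 and CIDEA lower, PNPLA2 higher), and with a random block or without the dim slide they were MFGE8 and PNPLA2. Without the block, calls fell to 3 among the other globule membrane proteins, to 0 in lipolysis and to 0 among the acyltransferases.

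In the refitted alternatives changes turned sign at 6 of the 19 probes, none of them called. BTN1A1 probe 1 was at 0.0727 under quantile normalization, 0.0516 under normexp with the percentile shift and 0.0170 under normexp with quantile normalization. The last 2 settings gave BTN1A1 probe 3 at 0.0756 and 0.00127. PLIN3 probe 1 was at 0.0382, 0.119 and 0.0405 under the same 3 settings, and PLIN3 probe 2 at 0.000735 under a median shift. Without the dim slide PLIN3 probe 2 was at 0.0771 and MUC1 probe 5 at 0.0144. With each cow left out, BTN1A1 probe 2 ranged from -0.0133 to 0.118, BTN1A1 probe 3 from -0.0839 to 0.00444, PLIN3 probe 1 from -0.0569 to 0.0446 and PLIN3 probe 2 from -0.0729 to 0.0686. The causes were not tested. Of 380 refitted comparisons over the 19 probes, 320 kept the direction and the side of the threshold, 35 lost the call, 6 gained it and 19 turned sign. Of 57 values within a slide, which have no test, 11 turned sign, at 10 probes. ABHD5 and 2 of the 3 LIPE probes are limited by signal at background, and the slide of cows 5 and 6 by its low brightness.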

Other observations

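Among the marker lists, to be read beside 16.2% called over all tested genes, 3 of 8 tested luminal epithelial genes were called, all higher: KRT8 (0.72, limma adjusted p = 0.00891), KRT7 (0.53, adjusted p = 0.0596) and KRT18 (0.52, adjusted p = 0.068). ELF5, the brightest of that list, was at -0.05 (adjusted p = 0.727). The 5 measured milk proteins had negative changes, with a median of -0.20, which was 0.01 after quantile normalization, where 0 of the 5 were called. By the brightest probe, CSN1S1 (-0.26, adjusted p = 0.0912) and CSN3 (-0.28, adjusted p = 0.0776), both caseins, were called, and LALBA, the brightest gene, was at -0.20 (adjusted p = 0.139). By any probe 4 of the 5 were called lower, beside 11.5% of all tested genes. These calls were at 1 of 6 probes of CSN1S1, 4 of 5 of CSN1S2, 1 of 2 of CSN3 and 1 of 2 of LALBA. Of 7 tested myoepithelial genes, CNN1 (calponin) fell by 0.53 (adjusted p = 0.0323), ACTA2 (smooth muscle actin) fell by 0.38 (adjusted p = 0.0857) and KRT17 rose by 0.44 (adjusted p = 0.0789). VWF (von Willebrand factor) rose by 0.54 (adjusted p = 0.00726) in 6 of 6 cows, the only call among 5 endothelial genes. Limma called 0 of 6 tested leukocyte and macrophage genes (1 at an unadjusted p below 0.05), CD14 being the brightest (-0.09, adjusted p = 0.673). It called 0 of 6 fibroblast genes by the brightest probe (2 at an unadjusted p below 0.05) and 1, lower, by any probe. Of the fibroblast genes 4 were lower and 2 higher, with a median of -0.36. DCN, the brightest, was among the higher ones at 0.32 (adjusted p = 0.254). Without the cow in the fit limma called 0 luminal, 0 milk protein and 0 myoepithelial genes (3, 2 and 2 at an unadjusted p below 0.05), and KRT8 then had an adjusted p of 0.133, while VWF was still called (adjusted p = 0.0539). By any probe the luminal, milk protein and myoepithelial counts were also 0, beside 5.69% of all tested genes.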
